A study of Homo sapiens with 12 samples.

Results

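The SOX transcription factors described here were SOX2, SOX4, SOX7, SOX9, SOX11, SOX12, SOX13, SOX15 and SOX21, whose rows were taken by symbol from the 3 deposited count tables, 9 of 33538 rows per table. Transcripts of single cells had been sequenced (scRNA-seq) by a droplet method in 3 established lines of head and neck squamous cell cancer (HNSCC), SCC1, SCC6 and SCC25, all sensitive to cetuximab. Cetuximab is an antibody against EGFR, the receptor of the epidermal growth factor. Each line received cetuximab at 100 nM every day for 5 days, or PBS, a phosphate-buffered saline, for untreated controls, with 2 replicates in each of the 6 groups and 12 samples in total. The lines were grown alone in serum-containing medium, so stroma and immune cells of a tumour were not part of the model.

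SOX proteins bind DNA through a high mobility group box related to that of the sex-determining factor SRY, and act with partner factors on enhancers of lineage genes. They are sorted by the similarity of that box into lettered groups, which often share targets. In squamous epithelia SOX2 is known as a lineage factor that works with TP63, and the SOXC group, to which SOX4 belongs, is known for roles in progenitor cells and in the transforming growth factor beta (TGF-beta) response.

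The tables held 23914 cells, 961 to 2854 per sample, with 57057402 to 112170073 unique molecular identifiers (UMIs, which mark single captured transcripts) per sample. The median depth was 24078.5 to 54864 UMIs per cell, with the lowest value in SCC6 cetuximab replicate 1, against 50156 in replicate 2. The summed level of 8 squamous carcinoma markers was 899.5 to 13373 CPM (UMIs of a gene scaled to a common library total in the usual way). SCC6 had the lowest sums, and its lowest levels of KRT5 and KRT14, keratins of basal squamous cells, were 0.967 and 0.379 CPM. SOX10, a defining factor of melanocytes and Schwann cells, had 0 UMIs in every sample. Of 4 leukocyte markers, PTPRC and CD3E had 15 and 6 UMIs in all samples together, while CD14 had 4673 and CD79A 761, and the list summed to 1.13 to 14.1 CPM.

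Cetuximab-treated cells held more SOX4 transcripts than untreated cells in each of the 3 lines, and SOX4 rose 2.83-fold across the lines (95% interval 2.09 to 3.83). SOX7 and SOX15 fell across the lines, to 0.615 and 0.741 of the PBS level. In SCC6, SOX2 fell by 3.12 on the log2 scale. SOX9, SOX12 and SOX13 did not pass the test across lines, and SOX11 and SOX21 were too rare to be tested. The remaining 7 members passed the filter on low counts, among 17897 genes that entered the edgeR quasi-likelihood test on UMIs summed per sample. Calls were made at a Benjamini-Hochberg adjusted p (FDR) under 0.05. Across lines 3 of the 7 were called, 1 higher and 2 lower, while 3.67% of all tested genes were called, 2.53% higher and 1.13% lower. Within lines, 0 of 7 were called in SCC1, 3 of 7 in SCC6 and 0 of 7 in SCC25, and the shares of all genes called were 0.0168%, 3.81% and 0%. At an unadjusted p under 0.05, 3, 5 and 3 members passed in SCC1, SCC6 and SCC25, beside 1570, 3561 and 1041 of the 17897 tested genes.

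Samples with the same replicate number deviated together, and a fit with the replicate number as a block called more members within lines. With the block, 2 members were called in SCC1, 5 in SCC6, 2 in SCC25 and 3 across lines, beside 4.45%, 20.1%, 0.978% and 11.6% of all genes. DESeq2 called 2 members in SCC1 and 0 in SCC25, beside 1.70% and 0.617% of all genes. Blocked values stand beside each member whose call they change.

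**Figure D1:**
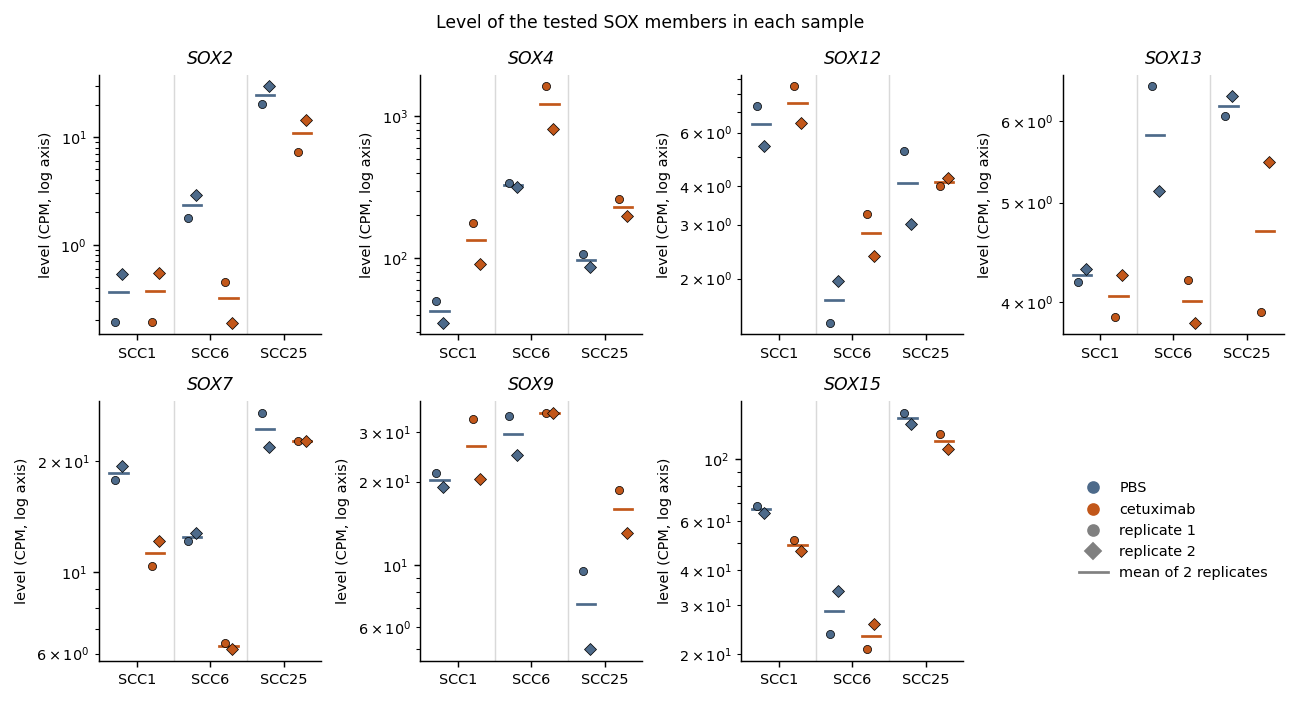
Level of the 7 tested SOX members in each sample, in CPM on a log axis. Points are samples, coloured by treatment and shaped by replicate number, and bars are the means of the 2 replicates of a group. Both cetuximab replicates of SOX4 lie above both PBS replicates in all 3 lines.

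SOX4 is a SOXC factor of progenitor cells and lies at chr6:21593751-21598619 (GRCh38.p14, RefSeq). In SCC1 its level was 49.6 and 35.1 CPM in PBS replicates 1 and 2 and 178 and 90.4 CPM in the cetuximab replicates. In SCC6 it was 337 and 318 CPM with PBS and 1629 and 814 CPM with cetuximab. In SCC25 it was 107 and 86.9 CPM with PBS and 262 and 199 CPM with cetuximab. The groups did not overlap in any line, cetuximab replicate 1 was the higher of the pair each time, and both cetuximab replicates stood above both PBS replicates in all 3 lines for 5.51% of all tested genes.

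The log2 fold change of SOX4 was 1.50 ± 0.20 across lines (standard error, SE, edgeR FDR = 0.00600). This call held without each of the 12 samples in turn, at log2 values of 1.34 to 1.59. By line the log2 change was 1.66 ± 0.37 for SCC6 (FDR = 0.0362), 1.62 ± 0.37 for SCC1 (FDR = 0.195) and 1.22 ± 0.36 for SCC25 (FDR = 0.596). With the replicate block SOX4 was called in all 3 lines, with FDR values of 0.0108, 0.00280 and 0.0410 in SCC1, SCC6 and SCC25, and 0.268% of all genes were called higher in each line by that fit. The test of a difference between the lines gave an FDR of 1 for SOX4. The SCC6 call was lost without SCC6 PBS replicate 1 (FDR = 0.220), PBS replicate 2 (0.113), cetuximab replicate 1 (log2 change 1.10, FDR = 0.276), SCC1 PBS replicate 1 (0.0561) or SCC1 PBS replicate 2 (0.0558), and when SCC6 was fitted alone (0.0680).

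**Figure D2:**
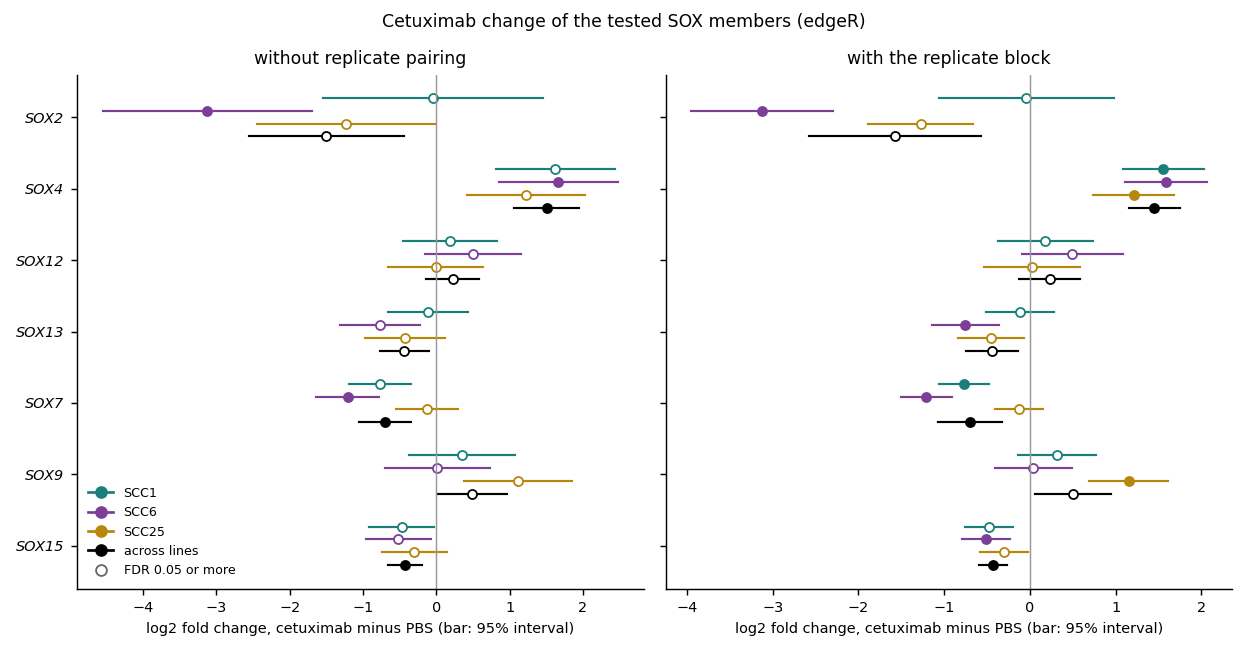
Log2 fold change, cetuximab minus PBS, of the 7 tested SOX members in edgeR, without the replicate block on the left and with it on the right. Points are estimates in SCC1, SCC6, SCC25 and across lines, bars are 95% intervals, and filled points have an FDR under 0.05. SOX4 is to the right of 0 in every fit.

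The 250 bases upstream of the SOX4 start, chr6:21593501-21593750 on the plus strand (RefSeq, GRCh38.p14), are shown because SOX4 was the member called in the most comparisons, and those of SOX2 because it had the largest fitted decrease among the tested members. Upstream sequences were matched for 5 of the 9 members, SOX2, SOX4, SOX12, SOX13 and SOX21. The letters ACAAAG and ACAATG (2 forms of the SOX recognition sequence), CCAAT (the CAAT box), TATAAA (the TATA box), GGGCGG (the GC box) and TGACTCA (the AP-1 sequence) were searched on both strands, and these letters do not overlap one another in the 2 sequences. They were chosen after the sequences had been seen. Capitals mark each match on either strand.
SOX4 upstream: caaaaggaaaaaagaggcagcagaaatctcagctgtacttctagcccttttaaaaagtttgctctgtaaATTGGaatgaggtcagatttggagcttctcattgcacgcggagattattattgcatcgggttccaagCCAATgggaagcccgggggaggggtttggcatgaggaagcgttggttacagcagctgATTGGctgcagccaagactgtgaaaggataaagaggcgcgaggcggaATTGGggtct
SOX2 upstream, chr3:181711675-181711924 on the plus strand: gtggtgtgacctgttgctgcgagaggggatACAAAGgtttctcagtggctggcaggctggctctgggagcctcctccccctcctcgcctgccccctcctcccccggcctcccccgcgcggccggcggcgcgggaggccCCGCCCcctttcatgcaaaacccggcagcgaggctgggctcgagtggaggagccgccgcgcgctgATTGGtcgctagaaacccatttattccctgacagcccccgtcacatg
The SOX4 sequence held 4 matches of CCAAT, at 181, 114, 57 and 10 bases upstream of the start. At least 1 CCAAT was present in 33.0% of 27305 promoters of the same length, and at least 4, a number chosen after the SOX4 sequence had been seen, in 0.930%. It held no match of the other letters. The SOX2 sequence held 1 ACAAAG at 220 bases, 1 GGGCGG at 112 bases and 1 CCAAT at 47 bases. SOX12 held 1 CCAAT and 3 GGGCGG, SOX13 1 GGGCGG, and SOX21 1 CCAAT and 1 TATAAA. Of all promoters, 13.7% held ACAAAG, 9.45% ACAATG, 11.1% TATAAA, 42.3% GGGCGG and 4.16% TGACTCA. A match is a description of letters and not of a bound site.

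To ask whether SOX4 moved in many cells or in few, each cell was thinned to 15000 UMIs, and a cell with 1 or more UMIs was called positive. In SCC1, SOX4-positive cells were 38.2% ± 3.38 of all cells with PBS against 61.7% ± 11.3 with cetuximab (SD, n = 2). SCC6 had 87.6% ± 0.786 with PBS and 99.1% ± 0.719 with cetuximab, and SCC25 61.9% ± 5.10 with PBS and 82.9% ± 5.04 with cetuximab. Without thinning, the PBS and cetuximab means were 69.0% and 85.5% for SCC1, 96.2% and 99.8% for SCC6, and 83.9% and 96.0% for SCC25. Over the lines the thinned share was 18.7 percentage points higher with cetuximab, with the same sign in 6 of 6 pairs of one number (exact two-sided permutation test within lines, p = 0.00926, the smallest it can give). Thinning left out, in PBS replicates 1 and 2 and cetuximab replicates 1 and 2, 48, 26, 23 and 33 cells of SCC1, 79, 50, 262 and 14 cells of SCC6, and 130, 73, 79 and 34 cells of SCC25.

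In SCC6 almost every cell was already positive, and the difference lay in the number of UMIs per cell. The median SCC6 cell had 3 SOX4 UMIs in both PBS replicates and 23 and 11 in cetuximab replicates 1 and 2. Cells with 10 or more SOX4 UMIs made up 17.0% and 16.1% of the SCC6 PBS replicates and 88.1% and 58.7% of the cetuximab replicates. In SCC25 the same share was 0.960% and 1.32% with PBS and 10.6% and 7.73% with cetuximab. Cetuximab replicate 1 of SCC6, the shallower library, was the higher of the pair at every number of SOX4 UMIs from 1 to 60.

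**Figure D3:**
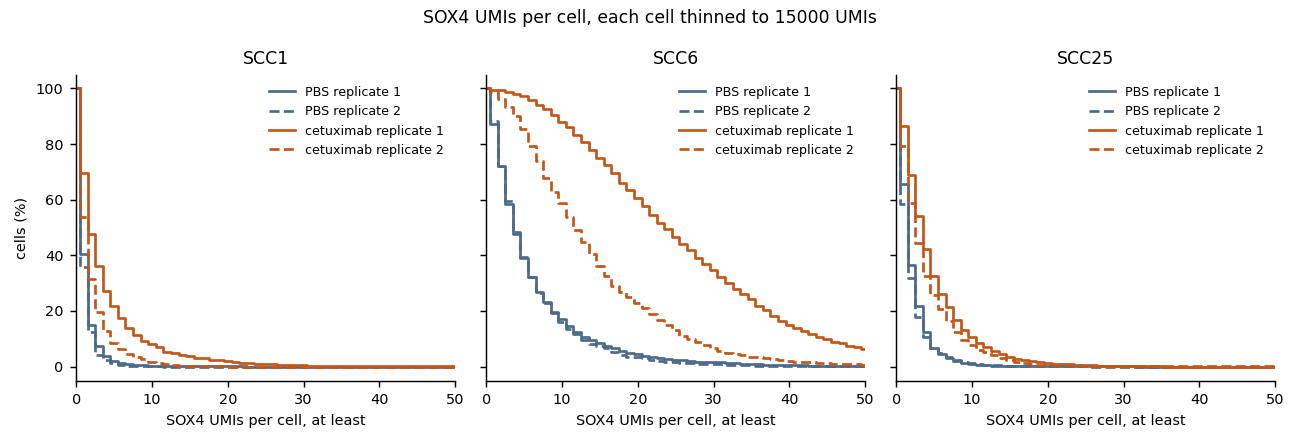
Share of cells (%) with at least the number of SOX4 UMIs on the x axis, in cells thinned to 15000 UMIs, for each sample of SCC1, SCC6 and SCC25. Solid and dashed lines are replicates 1 and 2. The x axis ends at 50 UMIs, and in SCC6 both cetuximab curves lie above both PBS curves from 1 UMI to that end. Beyond the drawn range, at 60 or more UMIs, SCC6 cetuximab replicate 2 is at 0 and PBS replicate 1 at 0.113%. In SCC6 cetuximab, 88.1% and 58.7% of its cells have 10 or more UMIs.

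The level of proliferation genes moved in the same samples, so SOX4 was also measured in cells without and with UMIs of 10 proliferation genes, a split chosen after the data had been seen. Summed, the 10 genes reached 1504 and 1693 CPM with PBS and 521 and 997 CPM with cetuximab in SCC1. SCC6 had 1519 and 2406 CPM against 1491 and 1768 CPM, and SCC25 had 1312 and 1305 CPM against 1097 and 940.0 CPM. Across lines 1 of the 10, TPX2, fell, beside 1.13% of all tested genes called lower. With the replicate block 8 of the 10 fell across lines, 10 in SCC1 and 3 in SCC6. That fit called 11.6%, 4.45% and 20.1% of all genes in the same order, in either direction.

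Within every one of the 12 samples, SOX4 was higher in cells with 0 UMIs of these genes than in cells with 1 or more, by ratios of 1.14 to 1.82. Cells with 0 such UMIs made up 8.89% and 6.83% of the SCC1 PBS replicates and 43.8% and 16.9% of the SCC1 cetuximab replicates. The ratio of the cetuximab mean to the PBS mean of SOX4 among cells with 0 such UMIs was 3.47, 2.70 and 2.24 for SCC1, SCC6 and SCC25. Among cells with 1 or more it was 2.96, 3.66 and 2.34. These differences, and the part of proliferation in the SOX4 change, were not tested. SOX4 also varied with depth in a split chosen after the data had been seen, and cells up to the median depth of a sample exceeded deeper cells in 12 of 12 samples, by ratios of 1.19 to 1.79. Among the shallower cells the ratio of cetuximab to PBS was 4.09, 3.51 and 2.61 in SCC1, SCC6 and SCC25, and among the deeper cells it was 2.84, 3.81 and 2.32.

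**Figure D4:**
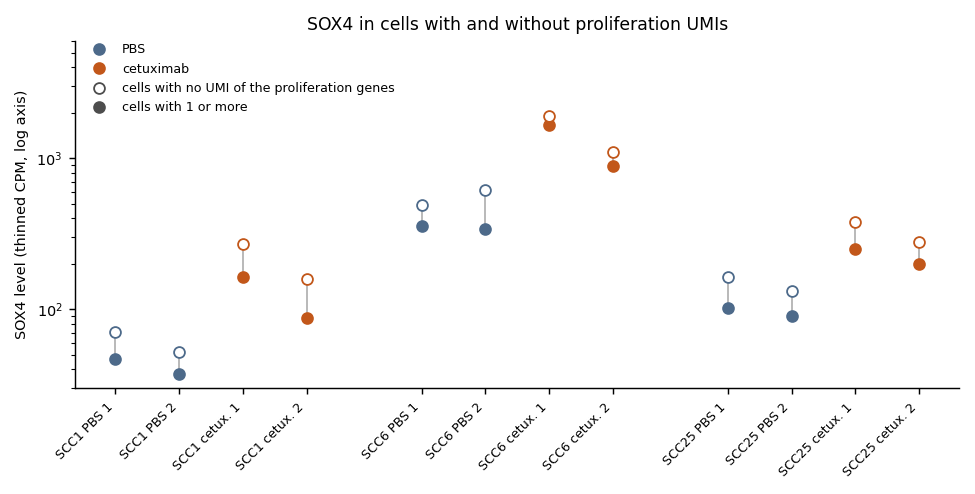
SOX4 level in CPM of thinned cells (log axis) in each of the 12 samples, split into cells with no UMI of the 10 proliferation genes (open circles) and cells with 1 or more (filled circles). The open circle is the higher of the pair in all 12 samples, and within each class cetuximab is above PBS in each line.

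Of the other SOXC factors, SOX12 was called in no comparison of cetuximab with PBS and SOX11 was hardly detected. SOX11, a factor of neural progenitors at chr2:5692384-5701385, had 16 UMIs in 12 cells, all in SCC25. SCC25 PBS replicates 1 and 2 had 5 and 0 of these UMIs and the cetuximab replicates 10 and 1. The share of SOX11-positive cells without thinning was 0.0863% in SCC25 PBS and 0.200% in SCC25 cetuximab. In 3 of the 4 SCC25 samples, at least 1 of the background genes PTPRC, CD3E, ALB and HBB, which carcinoma cells should lack, had a higher share than SOX11, which was read there as background. In SCC25 cetuximab replicate 1 the SOX11 share was 0.350%, above those of the 4 background genes. After thinning it was 0.156% there (95% interval 0.0322% to 0.456%) against 0.104% for PTPRC (0.0126% to 0.376%), and the intervals overlapped. A count of 0 allows a level of up to 3 UMIs, or 0.0267 to 0.0526 CPM depending on the sample.

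SOX12 lies at chr20:325552-330224 and is the third SOXC factor. In SCC1 its level was 7.34 and 5.44 CPM with PBS and 8.50 and 6.46 CPM with cetuximab, and these ranges overlapped. In SCC6 it was 1.43 and 1.97 CPM with PBS and 3.25 and 2.38 CPM with cetuximab, where the groups did not overlap. In SCC25 it was 5.24 and 3.00 CPM with PBS and 4.01 and 4.25 CPM with cetuximab, where they did. The log2 change across lines was 0.22 with a 95% interval of -0.14 to 0.59 (edgeR FDR = 0.499).

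SOX2 is a SOXB factor of stem cells and squamous epithelia, and its gene at chr3:181711925-181714436 lies within the noncoding gene SOX2-OT, which has the same orientation, so strand does not separate reads of the 2 genes. Between the PBS groups of SCC25 and SCC1, SOX2 had the largest log2 difference of the tested members, with 20.1 and 29.6 CPM in SCC25 PBS, 1.78 and 2.93 CPM in SCC6 PBS and 0.192 and 0.533 CPM in SCC1 PBS. With cetuximab it was 7.30 and 14.5 CPM in SCC25, 0.447 and 0.189 CPM in SCC6 and 0.193 and 0.546 CPM in SCC1. Both cetuximab replicates stood below both PBS replicates in SCC6 and in SCC25, while in SCC1 the groups overlapped at 11 to 49 UMIs per sample.

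In SCC6, SOX2 fell by 3.12 ± 0.64 on the log2 scale (edgeR FDR = 0.0288). That call rests on 179 and 301 UMIs with PBS against 34 and 17 with cetuximab, and it was lost without SCC6 PBS replicate 1 (FDR = 0.118), PBS replicate 2 (0.0708), cetuximab replicate 1 (0.119) or cetuximab replicate 2 (0.125). In SCC25 the log2 change was -1.23 ± 0.55 (FDR = 0.855, and 0.0794 with the block), and across lines it was -1.50 ± 0.49 (FDR = 0.103, and 0.0523 with the block). The test of a difference between lines gave an FDR of 0.562 for SOX2. SOX2-positive cells made up 27.9% ± 6.99 of SCC25 PBS and 13.2% ± 5.43 of SCC25 cetuximab after thinning (49.5% and 31.5% without it). In SCC6 they made up 2.87% and 0.514%, and in SCC1 0.530% and 0.659%, against at most 0.137% for any of the background genes PTPRC, CD3E, ALB and HBB in any sample.

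SOX21, the other SOXB member, lies at chr13:94709622-94712545 and is a repressor in neural cells. It had 1 UMI in each SCC25 PBS replicate and 0 in the other 10 samples, too few for any comparison.

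SOX13 is a SOXD factor, which lacks an activation domain of its own, and lies at chr1:204073115-204127743. Its level was the most even of the tested members among groups, with means from 4.02 to 6.21 CPM. In SCC6 it was 6.49 and 5.14 CPM with PBS and 4.21 and 3.82 CPM with cetuximab, and the groups did not overlap. SCC25 had 6.07 and 6.35 CPM with PBS and 3.92 and 5.48 CPM with cetuximab. In SCC1, with 4.19 and 4.31 CPM against 3.87 and 4.25 CPM, the ranges overlapped. The log2 change was -0.77 ± 0.25 in SCC6 (FDR = 0.118), where the replicate block gave -0.75 and an FDR of 0.0188.

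SOX9 is a SOXE factor of cartilage, hair follicle and other progenitor cells, at chr17:72121020-72126416. Its level in SCC25 was 9.51 and 5.01 CPM with PBS and 18.7 and 13.1 CPM with cetuximab, and these groups did not overlap. In SCC1 it was 21.5 and 19.1 CPM with PBS and 33.4 and 20.4 CPM with cetuximab, where replicate 1 stood apart from the others. SCC6 had 34.3 and 25.0 CPM with PBS and 35.2 and 35.3 CPM with cetuximab. The cetuximab values of SCC6 were nearly equal, just above the higher PBS replicate.

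The log2 change of SOX9 was 1.12 ± 0.33 in SCC25 (edgeR FDR = 0.596), and with the replicate block it was 1.15 ± 0.20 (FDR = 0.0448). In SCC1 and SCC6 it was 0.35 and 0.01, and across lines 0.49 ± 0.22 (FDR = 0.223). SOX9-positive cells made up 9.98% of SCC25 PBS and 19.7% of SCC25 cetuximab, 21.9% and 27.2% of the same groups of SCC1, and 29.8% and 37.5% of those of SCC6. Shares and CPM, unlike the edgeR log2 changes, carry no TMM scaling factors, and in SCC6 the share rose at a log2 change of 0.01. Over the lines the share was 7.57 percentage points higher with cetuximab, in 6 of 6 pairs (exact permutation p = 0.0185). Without thinning, the means were 20.3% and 42.4% for SCC25, 46.3% and 51.4% for SCC1, and 53.0% and 62.5% for SCC6, and the exact permutation p was 0.0741.

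SOX7 is a SOXF factor known from endothelial and endoderm development, at chr8:10723768-10730511, where it overlaps SOX7-AS1. Reads of the 2 could not be told apart if the authors' counting ignored strand, and the setting was not given in the sources used here. The endothelial markers PECAM1, VWF and CDH5 summed to 0.0292 to 0.647 CPM. In SCC1, SOX7 was at 17.7 and 19.4 CPM with PBS and at 10.4 and 12.2 CPM with cetuximab. In SCC6 it was at 12.1 and 12.7 CPM with PBS and at 6.42 and 6.18 CPM with cetuximab, so the groups were apart in both lines. In SCC25 it was at 27.1 and 21.8 CPM with PBS and at 22.7 in both cetuximab replicates, which lay between the PBS values.

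SOX7 fell by 1.21 ± 0.19 on the log2 scale in SCC6 (edgeR FDR = 0.0120) and by 0.70 ± 0.16 across lines (FDR = 0.0378). In SCC1 the log2 change was -0.77 ± 0.19 (FDR = 0.238, and 0.0169 with the block), and in SCC25 it was -0.13 with a 95% interval of -0.55 to 0.29 (FDR = 1). The test of a difference between lines gave an FDR of 0.467 in edgeR, 0.0572 with the block and 0.0137 in DESeq2. The SCC6 call was lost without SCC6 PBS replicate 1 (FDR = 0.101), cetuximab replicate 1 (0.0937) or cetuximab replicate 2 (0.0557) and when SCC6 was fitted alone (0.0756). The call across lines was lost without any 1 of the 8 SCC1 and SCC6 samples (FDR of 0.0598 to 0.102) and kept without any 1 of the 4 SCC25 samples. SOX7-positive cells made up 23.1% and 14.3% of SCC1 PBS and cetuximab cells, 15.5% and 8.72% in SCC6, and 29.5% and 28.1% in SCC25, and 49.5%, 36.3%, 33.1%, 19.7%, 54.4% and 58.4% in the same order without thinning.

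SOX15, the only SOXG factor, is known from muscle precursors and squamous epithelia and lies at chr17:7588178-7590094, overlapping MPDU1, so that its counts too could hold reads of that gene. Its level was 147 and 134 CPM in SCC25 PBS and 124 and 109 CPM in SCC25 cetuximab. In SCC1 it was 68.1 and 64.3 CPM with PBS and 51.6 and 47.1 CPM with cetuximab, and neither line overlapped. In SCC6 it was 23.6 and 33.7 CPM with PBS and 20.9 and 25.6 CPM with cetuximab, where the groups did overlap.

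Across lines SOX15 fell by 0.43 ± 0.11 on the log2 scale (edgeR FDR = 0.0490, and 0.0136 with the block). The call lay next to the threshold and was lost without each of the 12 samples in turn, at FDR values of 0.0514 (without SCC25 cetuximab replicate 1) to 0.122 (without SCC1 PBS replicate 2), and without the filter on low counts (0.0884). In single lines the log2 change came to -0.47 (SCC1), -0.52 (SCC6) and -0.30 (SCC25), and none was called. With the block SOX15 was called in SCC6 (FDR = 0.0233). SOX15-positive cells made up 56.8% and 46.0% of SCC1 PBS and cetuximab cells, 33.2% and 27.1% in SCC6 and 83.3% and 76.3% in SCC25. In 0 of 6 pairs was it higher with cetuximab. Without thinning the same groups had 85.1%, 77.6%, 59.0%, 50.7%, 94.9% and 93.6%. Within samples, SOX15 was higher in cells with 0 proliferation UMIs in 2 of 12 samples, at ratios of 0.779 to 1.08, unlike the 12 of 12 for SOX4.

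**Figure D5:**
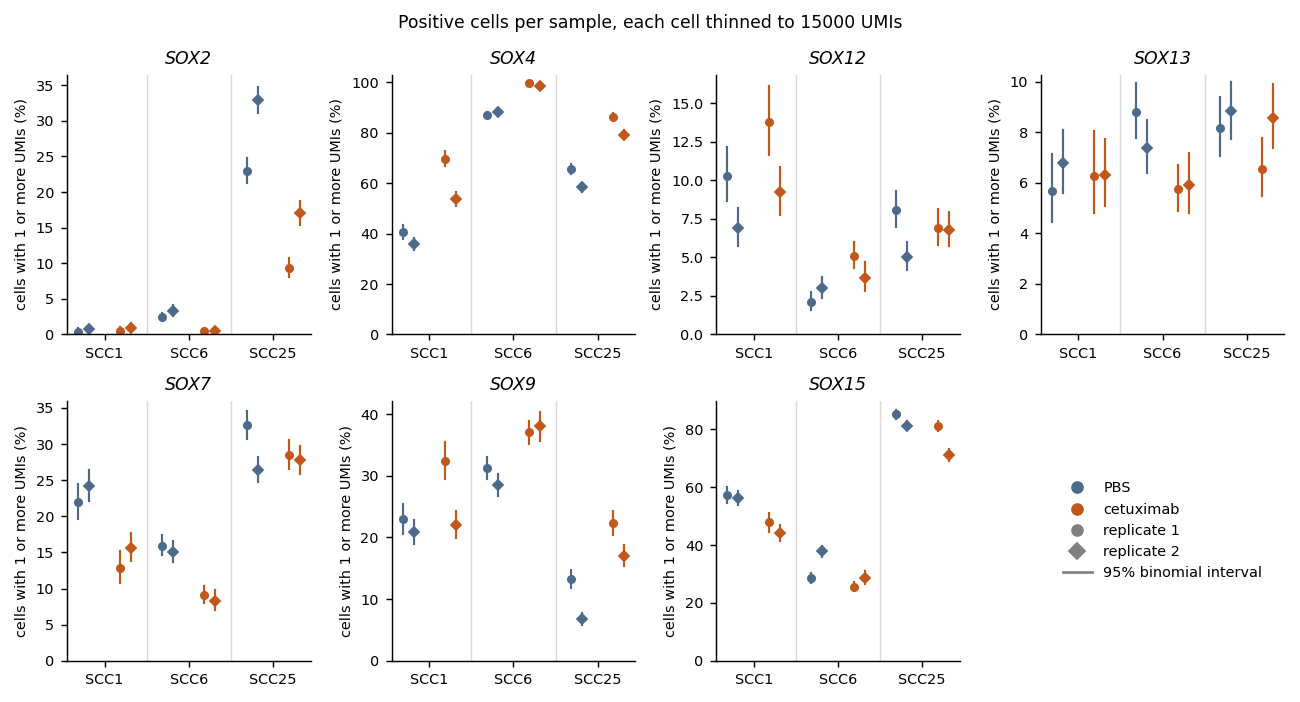
Share of cells (%) with 1 or more UMIs of each tested SOX member in each sample, after thinning to 15000 UMIs, with linear axes that start at 0. Points are samples, coloured by treatment, and bars are exact 95% binomial intervals, which cover counting error only. SOX4 and SOX9 are higher with cetuximab in 6 of 6 pairs.

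By the permutation test within lines, the positive shares of 5 of the 9 members had p under 0.05, SOX4, SOX9, SOX15, SOX7 (p = 0.0278) and SOX2 (p = 0.0463), with 17.9% of all tested genes under the same threshold (13.2% higher and 4.68% lower with cetuximab). The mean differences over lines were -7.95 percentage points for SOX15 (exact permutation p = 0.0370), -5.67 for SOX7 and -5.65 for SOX2. These p-values were not adjusted over the 9 members and 4 background genes. How many of all genes lay on 1 side in 6 of 6 pairs was not counted. For SOX12 the difference was 1.67 points (exact p = 0.148) and for SOX13 -1.04 points (p = 0.0926). SOX12 passed without SCC25 PBS replicate 1 (exact p = 0.0463) and SOX13 without SCC1 PBS replicate 1 (exact p = 0.0370). Without thinning, 2 members passed, SOX4 (exact p = 0.00926) and SOX2 (p = 0.0370). SOX4 and SOX9 passed without each sample in turn. SOX2 did not pass without SCC6 cetuximab replicate 1 or 2 (exact p = 0.0556 each), SCC25 PBS replicate 2 (0.102) or SCC25 cetuximab replicate 1 (0.194), and SOX7 not without SCC25 PBS replicate 1 (0.0556). SOX15 did not pass without SCC6 PBS replicate 2 or SCC25 cetuximab replicate 2 (0.0556 each), SCC6 cetuximab replicate 1 or SCC25 PBS replicate 1 (0.0648 each).

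Counted by groups that do not overlap, 1 of the 7 tested members was above and 2 were below PBS in SCC1, where 24.7% and 17.3% of all genes did the same. In SCC6, 3 were above and 3 below, beside 37.4% and 11.6% of all genes. In SCC25, 2 were above and 3 below, beside 16.3% and 12.9%. SOX4 was the member above PBS in all 3 lines, and no member was below PBS in all 3, as 1.63% of genes were. The interaction test of line and treatment called 0 of the 7 members and 0% of all genes in edgeR. At an unadjusted p under 0.05 it had 2 members, SOX2 and SOX7, beside 1318 of the 17897 tested genes. DESeq2 called 1 member, SOX7, and 1.61% of all genes, and the block called 0 members and 1.29%.

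The lines differed among themselves in SOX levels before treatment. SCC6 PBS cells had 9.85 times the SOX4 level of SCC1 PBS cells (log2 difference 3.30 ± 0.39, FDR = 0.000110). SCC25 PBS cells had 74.9 times the SOX2 level of SCC1 PBS cells (6.23 ± 0.70, FDR = 9.59e-05) and 4.46 times the SOX15 level of SCC6 PBS cells (2.16 ± 0.21, FDR = 3.43e-05). SOX9 was lowest in SCC25, by 2.20 ± 0.34 on the log2 scale below SCC6 (FDR = 0.000682), and SOX12 was lowest in SCC6, by 1.57 ± 0.30 below SCC1 (FDR = 0.00214). In the order of the 6 groups, SOX15 ran from SCC25 over SCC1 to SCC6, with PBS above cetuximab in each line, and only its 2 SCC6 groups overlapped. SOX4 ran from SCC6 cetuximab over SCC6 PBS and SCC25 cetuximab down to SCC1 PBS, and only SCC1 cetuximab and SCC25 PBS overlapped.

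Of the 7 members, 5 were called between SCC6 and SCC1, 6 between SCC25 and SCC1 and 6 between SCC25 and SCC6, where 40.2%, 40.8% and 40.9% of all genes were called. SOX2, SOX4 and SOX15 were called in all 3 pairs. Not called were SOX9 and SOX7 between SCC6 and SCC1 (FDR = 0.0524 and 0.329), SOX12 between SCC25 and SCC1 (0.246) and SOX13 between SCC25 and SCC6 (0.887). The SOX4 difference of SCC25 and SCC1, 1.40 ± 0.36 on the log2 scale, was lost without SCC1 PBS replicate 2 (FDR = 0.0856), and that of SOX9, -1.31 ± 0.33, without SCC25 PBS replicate 2 (0.0730). The SOX12 difference of SCC25 and SCC6, 1.12 ± 0.30, was lost without SCC6 PBS replicate 1 (0.0818) or SCC25 PBS replicate 1 (0.0984). SOX13 exceeded its SCC1 level in SCC6 by 0.79 ± 0.25, which was lost without SCC1 PBS replicate 1 (0.159), SCC1 PBS replicate 2 (0.0855) or SCC6 PBS replicate 1 (0.162). Between SCC25 and SCC1, SOX7 (0.58 ± 0.19, FDR = 0.0333) and SOX13 (0.74 ± 0.25, FDR = 0.0359) lost the call without any 1 of the 4 PBS samples of these lines, and SOX7 also without SCC25 cetuximab replicate 2 (0.0505) and SOX13 without SCC1 cetuximab replicate 1 or 2 (0.0520 and 0.0521). Their FDR without the PBS samples was 0.0539 to 0.231 for SOX7 and 0.0644 to 0.188 for SOX13.

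Genes of the pathways in which SOX factors are known to act were taken as lists, described here by their counts. The lists were chosen with earlier results of these data known, so their counts are no independent support. Of all tested genes, 2.53% were called higher and 1.13% lower across lines, and 3.81% were called in SCC6. Of 11 tested TGF-beta genes, 4 rose across lines and 0 fell, with a median log2 change of 0.34 beside 0.01 over all genes. TGFB2, a TGF-beta ligand, rose by 2.47 ± 0.23 on the log2 scale (edgeR FDR = 0.000903). SMAD7 and SKIL, feedback inhibitors of the pathway, rose by 0.91 (FDR = 0.0281) and 1.10 (FDR = 0.0163). These 3 were also called in SCC6 (log2 changes of 2.61, 1.63 and 1.52 in the order given), and 0 of the 11 in SCC1 or SCC25. With the replicate block 5 rose across lines, 6 in SCC6 and 2 in SCC25, and 4 were called in SCC1, where TGFBI fell and the others rose. A list of 5 fibroblast markers (COL1A1, COL3A1, DCN, LUM and PDGFRB) moved in the same samples, all 5 with UMIs and only COL1A1 and LUM with UMIs in every sample. In SCC6 its sum was 0.947 and 2.97 CPM with PBS and 27.8 and 23.0 CPM with cetuximab. SCC25 had 17.7 and 36.6 CPM against 40.8 and 77.7 CPM, and SCC1 3.23 and 2.95 CPM against 5.84 and 3.51 CPM. The part of these markers in the SOX4 and TGF-beta results was not tested.

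Of 5 tested genes on a list of reported SOXC targets, SEMA3C, a guidance factor of the semaphorin family, rose across lines (log2 change 1.37 ± 0.28, FDR = 0.0244), and the list's median was 0.70. In SCC6, SEMA3C went from a mean of 12.5 to 57.8 CPM (FDR = 0.0414) and TEAD2, a transcription factor of the Hippo pathway, from 11.7 to 37.0 CPM (FDR = 0.0187). With the block TEAD2, TUBB3 and SEMA3C, 3 of the 5, rose across lines and in SCC6, where 11.6% and 20.1% of all genes were called. SEMA3C also rose in SCC1 with the block, beside 4.45% of all genes called. CASC15, a noncoding gene of the SOX4 region, went from 1.15 to 7.18 CPM in SCC6 (FDR = 0.0379). SOX21-AS1 did not pass the filter on low counts, and SOX2-OT and SOX9-AS1 were not analysed here.

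Of 13 partners of SOX2 in squamous cells 1 fell across lines and 0 rose, the homeobox factor PITX1 (log2 change -0.67, FDR = 0.0383), with a list median of -0.13. In SCC6, PITX1 fell by 1.16 and KLF5, a factor of basal epithelia, by 1.38 (FDR = 0.0122 and 0.0474). With the block TP73 also fell in SCC1 and PITX1 in SCC25, and TP63 rose in SCC6. Of 3 tested pluripotency partners of SOX2 and 4 tested cartilage targets of SOX9, 0 were called across lines, with medians of -0.13 and 0.41. Of 12 WNT genes 1 rose across lines, LGR5, whose mean CPM was 0.00858 with PBS and 0.136 with cetuximab, and the list's median was 0.45. In SCC6, TCF7L1, a repressor among the WNT effectors, rose by 1.99 (FDR = 0.00851). With the block LGR5, CTNNB1 and NOTUM rose there too, which made 4 of the 12 beside 20.1% of all genes called. Of 10 other SOX genes, 3 (SOX6, SOX8 and SOX18) passed the filter and 0 were called, with a median of 0.52 across lines. With the block SOX18 rose in SCC6, by 1.33 on the log2 scale (FDR = 0.0272).

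As a description of likeness, levels were correlated over the 12 samples with 7582 other genes of sufficient level, after the mean of each line was subtracted. The genes closest to SOX4 were LEPROT, DCAF5 and DLGAP4 (Pearson r of 0.983, 0.982 and 0.980). Those closest to SOX7 were PPP1R35, POLR2H and CHCHD4 (0.959, 0.949 and 0.934), to SOX9 AMIGO2, TMEM181 and SREBF2 (0.960, 0.944 and 0.936), and to SOX15 HNRNPR, APRT and NOL12 (0.923, 0.914 and 0.913). The points share libraries and depth, so these values rank genes and were not tested. LEPROT, closest to SOX4, went from 123 to 166 CPM in SCC1, from 61.1 to 91.1 CPM in SCC6 and from 55.0 to 69.4 CPM in SCC25, as means of PBS and cetuximab.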

How the data were processed

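The authors deposited 1 table of raw UMI counts per line, with a row per gene and a column per cell. Per the submitters' processing notes, reads were aligned with Cell Ranger to GRCh38 (version not given in the sources used here), and the methods name Monocle for pre-processing of the cells. The strand setting of the counting was not given. Groups and replicate numbers came from the labels, and no column was left unused. The labels speak of treatment in duplicate and the methods of sequencing in duplicate, so every SD, SE and p may cover only the spread between libraries. The 9 members and the gene lists were chosen with earlier results of these data known.

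All 23914 cells were used, with no doublet caller. Between 3 and 10 barcodes were common to both replicates of a group, and between 1 and 13 to samples of 2 groups. UMIs were summed per sample over 33514 symbols (24 symbols stood on more than 1 row and were added) and tested with edgeR 4.0.16 (R 4.3.3) with TMM factors and filterByExpr, in 1 fit of the 6 groups, in an additive fit of line and treatment, and for their interaction. Levels are CPM of the plain UMI totals. Neither CPM nor shares of positive cells carry the TMM factors that enter the edgeR log2 changes. Errors of log2 changes are SE, and the threshold was an FDR of 0.05, over 17897 genes. For shares of positive cells, 15000 UMIs were drawn from each cell without replacement and with a fixed seed, which left out 851 cells and kept 23063, and labels were permuted within lines (216 arrangements). Intervals of shares are Clopper-Pearson intervals (exact, 95%) for counting error alone. Positions and upstream sequences are those of RefSeq, GRCh38.p14. Python 3.11.15, numpy 2.4.6, pandas 2.3.3, scipy 1.17.1 and matplotlib 3.10.9 were used.

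Same-numbered samples of a line deviated together from their group means, with a Pearson r of 0.695 in SCC1, 0.649 in SCC6 and 0.724 in SCC25 across genes, which are not independent replicates. The pairing therefore comes from the data and the shared numbers, since the labels do not say what a number marks. Alternatives were the replicate block, DESeq2 1.42.0, its size factors in edgeR, no filter on low counts, a fit to 1 line alone, leaving out each sample, the 5% of cells with most UMIs or cells over 20% mitochondrial UMIs, no thinning, and 2 UMIs for a positive cell. Named in the text are all 9 members, the listed genes past a test across or within lines, and the 3 genes closest to a member among those with a mean of 10 CPM or more. Split classes of cells, the share test over all genes and the promoter letters were added after the data had been seen. Sequences of SOX7, SOX9, SOX11 and SOX15 were not used here, and 1 gene of the TGF-beta list is counted but not reported here.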

Additional observations from a re-analysis of the deposited data

How the results depend on the processing

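Counts of called members varied with the setting. With the replicate block they went from 0 to 2 in SCC1, from 3 to 5 in SCC6 and from 0 to 2 in SCC25, and the block changed no call across lines or of the interaction. DESeq2 called 2 members in SCC1 and 1 by the interaction, a fit to SCC6 alone called 1, and without the filter on low counts 1 was called in SCC1, 1 in SCC25 and 1 by the interaction (SOX2). The shares of all genes called in the fit to SCC6 alone and without the filter are not given here. Leaving out 1 sample, where the lone sample of a group is assumed to vary like the other groups, gave 0 to 3 members in SCC6, 1 to 2 across lines, 3 to 6 of 6 between untreated SCC25 and SCC1, and 3 to 6 positive shares. Without thinning 2 positive shares passed in place of 5.

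No log2 change that turned sign was called in the main result, where SOX9 in SCC1 was at 0.35, SOX12 in SCC1 at 0.18 and the others at -0.05 to 0.01. SOX2 in SCC1 was 0.00186 without the 5% of cells with most UMIs, 0.079 without cells of high mitochondrial share and -1.05 to 1.01 without 1 sample. SOX9 in SCC6 was -0.00767 with DESeq2 and with its size factors and -0.24 to 0.31 without 1 sample, and in SCC1 -0.0296 to 0.65. SOX12 in SCC25 was 0.0276 with the replicate block, 0.00891 without the 5% of cells with most UMIs and -0.31 to 0.37 without 1 sample, and in SCC1 -0.0104 to 0.35. SOX13 between untreated SCC25 and SCC6 was -0.26 to 0.18 without 1 sample. The share difference of SOX11 ranged from -0.00762 (without SCC25 cetuximab replicate 1) to 0.0445 points without 1 sample, and that of SOX21 was 0 with 2 UMIs for a positive cell. The cause of these changes was not tested. The replicate block was not run between untreated lines, where it would take the spread between replicates out of the comparison. Of the other results, 908 values kept direction and side of the threshold, 24 passed it, 67 no longer passed it and 18 changed sign. SOX2 in SCC1 and in SCC6 cetuximab, SOX11 and SOX21 rested on few UMIs, and for the other members depth and the spread between replicates were not told apart.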

Other observations

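The share of thinned cells positive for a pair of SOX members was divided by the product of their single shares, and the median ratio of a pair ran from 0.786 (SOX2 and SOX12, 3 samples) to 1.09 (SOX7 and SOX9). SOX4 and SOX9 had a median of 1.02 over 12 samples, with a range of 0.966 to 1.08. For SOX4 and SOX15 the median was 0.992, with a range of 0.917 to 1.01. SOX7 and SOX9 had a median of 1.09 and a range of 0.968 to 1.33, and 8 of 12 samples lay over 1. Cells positive for SOX2 and SOX7 could be compared in 4 samples, with ratios of 0.946 to 0.995. For SOX2 and SOX13 the ratios were 0.778 to 0.891, with 0 of 3 samples over 1. Wider ranges were found for SOX7 and SOX13 (0.873 to 1.40, 6 of 7 over 1) and SOX9 and SOX12 (0.768 to 1.43). Where almost all cells were SOX4-positive, as in SCC6, a ratio with SOX4 cannot be far from 1.

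Cells with 1 or more UMIs of VIM, a mesenchymal filament gene that the study followed, had a higher SOX4 level than cells with 0 in 11 of 12 samples, with ratios of 0.781 to 2.11. For SOX7 the same was true in 1 of 12 samples, and for SOX2 in 0 of 4 SCC25 samples, with ratios of 0.668 to 0.957. The ratio of SOX4 in cetuximab to PBS cells without VIM UMIs was 3.54, 2.43 and 2.45 for SCC1, SCC6 and SCC25, and 3.92, 3.20 and 2.49 in cells with VIM UMIs. In SCC1 these were few, 23 and 42 cells in the PBS replicates and 3 and 14 in the cetuximab replicates, with SOX4 at 65.8 ± 50.4 CPM and 258 ± 169 CPM (SD, n = 2). These classes were chosen after the data had been seen and their differences were not tested.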
